A study of Mus musculus with 6 samples.

Results

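Cholesterol and fatty acid synthesis was followed through 36 genes, chosen by name as the enzymes of the 2 pathways, their SREBP regulators and a few partners. Of these, 34 had a probe named for them among the 19057 genes read on the arrays, and 2, Hmgcs1 and Fdft1, had none and have no signal here. RNA was measured on 6 Illumina mouse arrays, 1 for each condition, all from mice of a mixed C57BL/6 and 129 background. The study deleted the DDB1 gene in mouse liver to bring out oval cells (OCs), the EpCAM+ ductal progenitor-like cells that expand when hepatocytes cannot divide, and set these cells beside hepatocytes and beside the OCs of a chemical injury. The arrays hold wild type hepatocytes, hepatocytes of DDB1F/F;Alb-Cre+/+ mice, and EpCAM+ cells of DDB1F/F;Alb-Cre+/+ mice (4 weeks old), of DDB1F/F;Alb-Cre+/- mice (6 weeks old), of DDB1F/F;MX1-Cre+/- mice (written Mx1-Cre here), and of wild type mice on the DDC diet. DDB1F/F means that both alleles of DDB1 carry sites that Cre cuts. Alb-Cre is driven by the albumin promoter and acts in hepatocytes, whereas Mx1-Cre is switched on by poly(I:C) injection and is not restricted to hepatocytes. DDC is a porphyria-inducing compound given in the food. No age is labelled for the hepatocyte, Mx1-Cre and DDC arrays, so age, model and cell type cannot be told apart wherever they change together.

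Hepatocytes make much of the body's cholesterol and, after a meal, much of its fat. The mevalonate pathway builds isoprene units from acetyl-CoA, farnesyl diphosphate is joined into squalene, and a chain of sterol enzymes turns lanosterol into cholesterol. Fatty acid synthesis starts from the same acetyl-CoA, which ATP citrate lyase and acetyl-CoA synthetase supply, and its product is then desaturated and elongated. Both branches are transcribed under the SREBP factors, encoded by Srebf1 and Srebf2. The protein SCAP escorts SREBPs out of the endoplasmic reticulum when sterols are low, and the INSIG proteins hold them there when sterols are high.

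SREBPs bind sterol regulatory elements and E-boxes and work together with NF-Y, which binds the CCAAT box. These 3 motifs were searched on both strands in RefSeq promoter windows of build GRCm38.p6, from 250 bases before to 50 bases after each start, and 29 of the 36 genes had a window. CCAAT was found in 25 of the 29 genes, or 86.2%, against 41.1% of 27025 genes in the same table. CACGTG, an E-box, was found in 6 genes, or 20.7%, against 8.09%. TCACNCCA, the core of a sterol regulatory element, was found in 3 genes (Gpam, Hmgcs1 and Srebf2), or 10.3%, against 4.97%. The motifs do not overlap each other in the windows printed here, and a match is only a match of letters. The windows below belong to genes on which the results turn: Ebp, Lss and Insig1 fell in EpCAM+ cells, Thrsp had the widest gap between mutant and wild type hepatocytes among the 36 genes, and Srebf2, which did not pass the test, had higher signals in EpCAM+ cells on its brighter probe. They are written 5′ to 3′ along the gene, with the motifs in capitals (CCAAT reads ATTGG on the opposite strand).
Ebp, chrX:8193463-8193762, minus strand: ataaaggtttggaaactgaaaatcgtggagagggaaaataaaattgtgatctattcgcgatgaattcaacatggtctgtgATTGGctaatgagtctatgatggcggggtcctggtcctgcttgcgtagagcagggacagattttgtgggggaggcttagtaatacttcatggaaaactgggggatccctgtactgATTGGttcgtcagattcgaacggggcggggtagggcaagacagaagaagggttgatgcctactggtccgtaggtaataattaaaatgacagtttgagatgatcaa
Lss, chr10:76531355-76531654, plus strand: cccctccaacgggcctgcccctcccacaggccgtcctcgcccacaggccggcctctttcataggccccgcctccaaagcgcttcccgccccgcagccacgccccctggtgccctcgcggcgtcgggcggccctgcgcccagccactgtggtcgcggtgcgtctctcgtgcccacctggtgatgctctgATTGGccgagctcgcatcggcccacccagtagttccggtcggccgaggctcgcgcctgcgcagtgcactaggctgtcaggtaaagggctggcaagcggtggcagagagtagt
Insig1, chr5:28071162-28071461, plus strand: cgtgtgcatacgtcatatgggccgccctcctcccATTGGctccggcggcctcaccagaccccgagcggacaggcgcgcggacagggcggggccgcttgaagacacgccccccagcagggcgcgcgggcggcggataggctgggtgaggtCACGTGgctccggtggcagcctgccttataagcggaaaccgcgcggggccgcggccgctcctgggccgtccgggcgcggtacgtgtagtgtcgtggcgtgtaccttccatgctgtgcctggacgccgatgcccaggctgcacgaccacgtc
Thrsp, chr7:97417501-97417800, minus strand: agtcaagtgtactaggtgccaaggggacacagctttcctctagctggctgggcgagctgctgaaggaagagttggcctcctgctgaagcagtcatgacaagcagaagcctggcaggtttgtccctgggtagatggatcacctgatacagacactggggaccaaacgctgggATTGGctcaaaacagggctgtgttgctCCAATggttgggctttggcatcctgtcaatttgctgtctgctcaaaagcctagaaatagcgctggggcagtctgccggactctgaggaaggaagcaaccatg
Srebf2, chr15:82147019-82147318, plus strand: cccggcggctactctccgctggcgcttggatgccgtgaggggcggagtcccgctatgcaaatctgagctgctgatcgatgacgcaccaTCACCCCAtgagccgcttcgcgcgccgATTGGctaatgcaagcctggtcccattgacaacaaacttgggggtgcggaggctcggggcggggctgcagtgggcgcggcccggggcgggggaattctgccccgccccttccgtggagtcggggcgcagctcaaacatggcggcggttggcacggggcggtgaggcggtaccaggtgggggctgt

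The signals given are the authors' quantile-normalized intensities, and a probe counts as above background on an array if its detection p there was under 0.05. Between 11429 probes (wild type hepatocytes) and 17152 (DDC) of 45281 were above background. Ddb1, the deleted gene, read 499 in wild type and 169 in mutant hepatocytes, 205 to 276 in the EpCAM+ cells of the 3 mutants and 317 after DDC; whether its probe lies in the deleted part was not checked. The deposited tissue label is mammary, but 0 of 5 mammary genes was above background on any array. The summed signal of 10 hepatocyte genes was 249000 in wild type and 187000 in mutant hepatocytes and 19400 to 61000 in EpCAM+ cells. Of these, Ttr alone read 56600 and 51200 in hepatocytes and 14700 to 46600 in EpCAM+ cells. The summed signal of 6 cholangiocyte and OC genes was 705, 6930 and 36900 to 56200. Epcam itself was above background on 3 of the 4 EpCAM+ arrays, the exception being Alb-Cre+/- with 112.

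Of the 34 genes with a probe, 31 were above background on at least 1 array and 23 on all 6. Acaca (acetyl-CoA carboxylase), Scd2 (a stearoyl-CoA desaturase) and Gpam (the first enzyme of glycerolipid synthesis) were above background on none, which sets no order between cells. The number of these genes above background was 29 and 30 on the hepatocyte arrays and 24 to 28 on the EpCAM+ arrays. Over all genes, 38.6% were above background in wild type and 51.5% in mutant hepatocytes, and 49.1% to 53.5% on the EpCAM+ arrays.

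**Figure D1:**
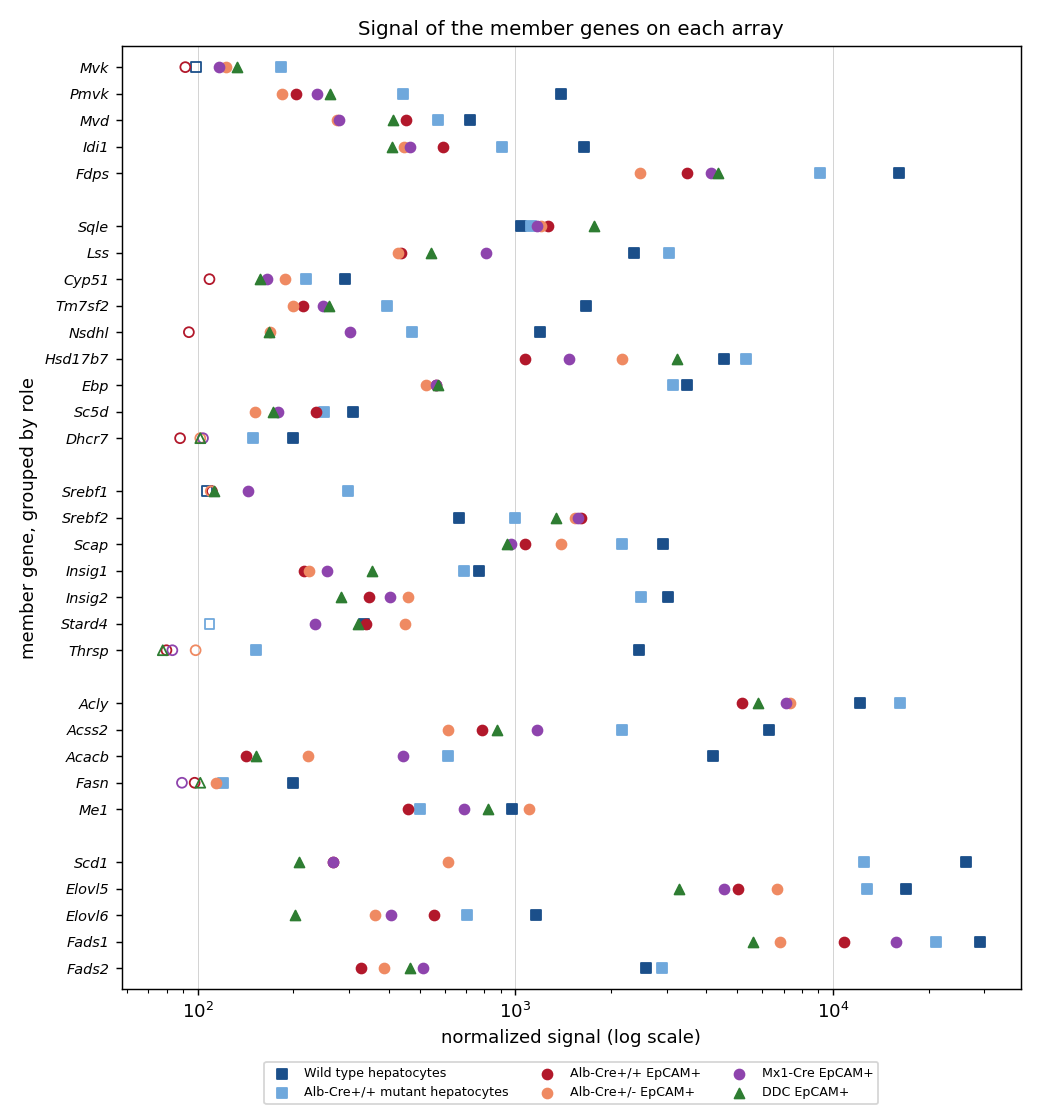
Normalized signal (log scale) of the 31 member genes above background on at least 1 array, by role, on each of the 6 arrays. Squares are hepatocytes, circles the EpCAM+ cells of the 3 DDB1 mutants and triangles the EpCAM+ cells after DDC; open symbols are not above background. Scd1 runs from 208 after DDC to 26251 in wild type hepatocytes, while Sqle stays between 1041 and 1771.

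Against hepatocytes, EpCAM+ cells had lower signals for genes of every role, and 14 of the 31 tested genes passed the test. Scd1, Insig2, Fads2 and Ebp fell under every alternative processing tried. With the 4 EpCAM+ arrays against the 2 hepatocyte arrays in limma (Benjamini-Hochberg adjusted p under 0.05 over 10932 genes), these 14 fell and 0 rose, where 7.35% of all genes fell and 7.23% rose. At an unadjusted limma p under 0.05, 24 of the 31 passed, where 3275 of all 10932 genes did. The median log2 difference was -1.43 over these genes and 0.06 over all genes tested. On 25 of the 31 genes, all 4 EpCAM+ arrays lay below both hepatocyte arrays, which 17% of all genes did. The opposite held for 2 genes, Sqle and Srebf2, against 21.7% of all genes. Dhcr7 and Thrsp were above background in hepatocytes alone, so their direction was set by the filter. Without them 13 of 29 genes fell, 23 of 29 had every EpCAM+ array below both hepatocyte arrays, and the median was -1.43 as before. In RNA of whole cell fractions, fewer cells of a type and less RNA per cell cannot be told apart. The hepatocyte markers fell between the same groups, and their part in these differences was not tested.

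In the mevalonate pathway, 2 of 5 genes fell and the other 3 did not pass. Fdps makes farnesyl diphosphate, the branch point to sterols and prenyl groups. Its signal was 16146 in wild type and 9129 in mutant hepatocytes, against 3474, 2468, 4122 and 4353 in the EpCAM+ cells of Alb-Cre+/+, Alb-Cre+/-, Mx1-Cre and DDC, the order kept from here on. Every EpCAM+ array was below both hepatocyte arrays, with a log2 difference of -1.79 (SE 0.34, limma adjusted p = 0.017). A second, dimmer probe of Fdps did not follow, with 264 and 148 in hepatocytes and 270, 188, 170 and 190 in EpCAM+ cells. Idi1, which interconverts the isoprene units, read 1644 and 911 in hepatocytes and 592, 445, 468 and 408 in EpCAM+ cells (log2 difference -1.37, SE 0.35, limma adjusted p = 0.044). Pmvk, which phosphorylates phosphomevalonate, read 1398 in wild type but 443 in mutant hepatocytes, and 204, 185, 237 and 261 in EpCAM+ cells. The hepatocyte arrays did not overlap with the EpCAM+ arrays for Pmvk, and the adjusted p was 0.053. Mvd, the decarboxylase after Pmvk, had an adjusted p of 0.17. Mvk was not above background in wild type hepatocytes.

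Between squalene and cholesterol, 4 of 9 genes fell. Ebp, the sterol isomerase, had the tightest values, with 3477 and 3146 in hepatocytes and 564, 523, 562 and 573 in EpCAM+ cells. Its log2 difference was -2.57 (SE 0.24, limma adjusted p = 0.0014). The 4 EpCAM+ arrays lay within 1.1-fold of each other, although they come from 4 models. Lss, lanosterol synthase, read 2358 and 3057 in hepatocytes and 436, 426, 808 and 543 in EpCAM+ cells (log2 difference -2.33, SE 0.35, limma adjusted p = 0.0069). A second, dimmer Lss probe read 215 in wild type but 115 in mutant hepatocytes, and 113 to 123 in EpCAM+ cells. Nsdhl, a dehydrogenase that removes sterol methyl groups, read 1196 and 473 in hepatocytes, was not above background in Alb-Cre+/+ EpCAM+ cells and read 169, 302 and 168 in the other EpCAM+ cells (adjusted p = 0.043). Dhcr7, the reductase of a last step, was above background on the hepatocyte arrays alone, with 200 and 149, and was thus at least 1.51-fold lower in EpCAM+ cells (limma adjusted p = 0.031). It passed the detection filter only through the hepatocyte arrays.

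The other sterol enzymes did not pass the test. Sqle, squalene epoxidase, an early oxygen-using step, read 1041 and 1124 in hepatocytes and 1266, 1208, 1170 and 1771 in EpCAM+ cells (log2 difference 0.30, adjusted p = 0.48). Its EpCAM+ arrays were all above the hepatocyte arrays, by a small margin in the 3 mutants. Hsd17b7, a ketone reductase of the sterol chain, read 4546 and 5336 in hepatocytes and 1072, 2169, 1482 and 3231 in EpCAM+ cells (adjusted p = 0.073). Its second, dimmer probe read 313 and 176 in hepatocytes and was not above background on any EpCAM+ array. Tm7sf2, a sterol reductase that also occurs in the nuclear envelope, differed between the hepatocyte arrays, with 1667 in wild type and 394 in mutant, and read 200 to 259 in EpCAM+ cells (adjusted p = 0.081). Cyp51, the lanosterol demethylase, and Sc5d, a sterol desaturase, had adjusted p-values of 0.12 and 0.20.

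The regulators split, with 3 of 7 genes lower and 4 not past the test. Insig2 dropped from 3030 and 2486 in hepatocytes to 347, 460, 402 and 283 in EpCAM+ cells (log2 difference -2.90, SE 0.31, limma adjusted p = 0.0024). A second probe of Insig2 read 1670 and 1280 in hepatocytes and 297, 345, 539 and 855 in EpCAM+ cells, lower on all 4 as well. Insig1 read 767 and 690 in hepatocytes and 217, 225, 256 and 353 in EpCAM+ cells (log2 difference -1.50, SE 0.36, limma adjusted p = 0.035). Both INSIG genes were thus lower on every EpCAM+ array. Scap read 2913 and 2167 in hepatocytes and 1073, 1391, 969 and 941 in EpCAM+ cells (log2 difference -1.22, SE 0.28, limma adjusted p = 0.029). A second Scap probe was above background only in mutant hepatocytes, at 131, and in Alb-Cre+/+ EpCAM+ cells, at 765. Srebf2, the factor that mainly drives the sterol genes, was 664 and 1001 in hepatocytes and 1608, 1542, 1579 and 1346 in EpCAM+ cells. Its 4 EpCAM+ values lay within 1.19-fold of each other and above both hepatocyte values, with a log2 difference of 0.89 (SE 0.27) and a limma adjusted p of 0.068. On a second Srebf2 probe the groups overlapped, with 341 and 453 in hepatocytes and 610, 208, 221 and 249 in EpCAM+ cells. On that probe Alb-Cre+/+ lay above both hepatocyte values and the other EpCAM+ arrays below both. Srebf1, whose main liver form drives fatty acid synthesis, was above background only in mutant hepatocytes (298), Mx1-Cre (144) and DDC (113).

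Stard4, a cytosolic sterol carrier, did not pass the test (log2 difference 0.74, SE 0.51, limma adjusted p = 0.37). It read 334 in wild type hepatocytes and 340, 450, 234 and 320 in EpCAM+ cells, and was not above background in mutant hepatocytes. Thrsp, a thyroid hormone-responsive protein of lipogenic tissue, was above background in hepatocytes alone. Its signal was 2457 in wild type and 153 in mutant hepatocytes, so the bound of at least 5.37-fold lower in EpCAM+ cells averages unlike arrays, and its adjusted p was 0.14.

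In fatty acid synthesis, 2 of 5 genes fell. Acly, which splits citrate into acetyl-CoA, read 12212 and 16240 in hepatocytes and 5191, 7330, 7142 and 5828 in EpCAM+ cells (log2 difference -1.16, SE 0.26, limma adjusted p = 0.028). Acss2, which makes acetyl-CoA from acetate, read 6288 and 2176 in hepatocytes and 784, 615, 1172 and 879 in EpCAM+ cells (log2 difference -2.14, SE 0.47, limma adjusted p = 0.026). Acacb, the acetyl-CoA carboxylase of the mitochondrial surface, showed a large range, from 4194 and 615 in hepatocytes to 142, 223, 443 and 153 in EpCAM+ cells, and missed the threshold with an adjusted p of 0.058. Me1, the malic enzyme that supplies NADPH, did not separate the groups, with 976 and 503 in hepatocytes and 459, 1107, 688 and 823 in EpCAM+ cells. Fasn, fatty acid synthase, was dim throughout, from not above background on 3 EpCAM+ arrays to 200 in wild type hepatocytes (adjusted p = 0.19).

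Among the desaturases and elongases, 3 of 5 genes fell. At the brightest probe, all 5 were lower on every EpCAM+ array than on either hepatocyte array. Scd1 puts the double bond into stearate and is one of the most abundant lipogenic transcripts of liver. It read 26251 and 12524 in hepatocytes and 267, 616, 267 and 208 in EpCAM+ cells, a 58.6-fold lower mean (log2 difference -5.87, SE 0.51, limma adjusted p = 0.0014). Fads2, the first desaturase of polyunsaturated fatty acids, read 2587 and 2897 in hepatocytes and 327, 385, 514 and 468 in EpCAM+ cells (log2 difference -2.72, SE 0.30, limma adjusted p = 0.0025). Elovl5, which elongates the products of Fads2, read 17004 and 12794 in hepatocytes and 5012, 6687, 4540 and 3273 in EpCAM+ cells (log2 difference -1.64, SE 0.32, limma adjusted p = 0.019). Fads1, the next desaturase, still reached 10819 and 15832 in Alb-Cre+/+ and Mx1-Cre EpCAM+ cells, against 28975 and 21164 in hepatocytes (adjusted p = 0.072). Elovl6, which elongates palmitate, read 1162 and 707 in hepatocytes and 554, 363, 405 and 202 in EpCAM+ cells (adjusted p = 0.11). A second, dim Elovl6 probe was above background only in EpCAM+ cells of Alb-Cre+/+, at 161, and Alb-Cre+/-, at 118.

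**Figure D2:**
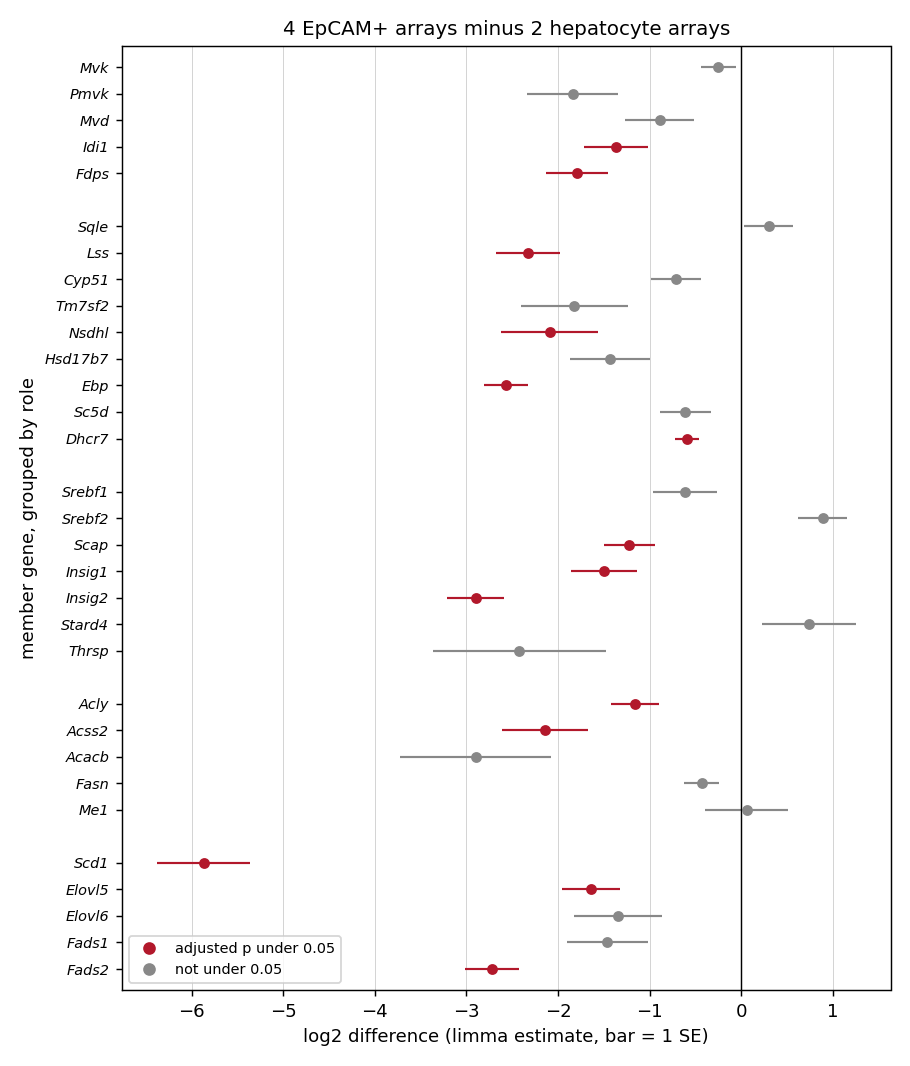
Log2 difference of the mean of 4 EpCAM+ arrays minus the mean of 2 hepatocyte arrays for the 31 tested genes, with limma's standard error as the bar; red points had an adjusted p under 0.05. The 14 red points all lie below 0, with Scd1 at -5.87, and Srebf2 at 0.89 is the highest point.

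The count of 14 depended on single arrays, as did the 803 lower over all genes. Without Mx1-Cre 6 members and 488 of all genes were lower, and without Alb-Cre+/+ EpCAM+ cells 7 and 569. The counts were 8 and 461 without Alb-Cre+/- EpCAM+ cells, and 9 and 540 without DDC. Ebp, Fads2, Insig2 and Scd1 passed in each of these. With 1 hepatocyte array left out, the members' median log2 difference was -1.01 (without wild type) or -1.69 (without mutant). Over all genes it was 0.08 or 0.09. The 6 arrays can be split in 15 ways into 4 and 2, so an exact permutation test of a single gene cannot give a p below 0.067.

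A further 39 genes of the same pathways, listed from general knowledge of them, had 33 with a probe and 27 tested. Of these, 9 fell and 1 rose, where 7.35% of all genes fell and 7.23% rose. The median log2 difference was -0.85, against 0.06 over all genes. Elovl2, an elongase of very long polyunsaturated fatty acids, read 6470 and 2457 in hepatocytes and 446, 180, 113 and 120 in EpCAM+ cells (limma adjusted p = 0.0071), the value in Mx1-Cre being not above background. Dgat2, the last enzyme of triglyceride synthesis, read 5350 and 5651 in hepatocytes and 239 to 995 in EpCAM+ cells (limma adjusted p = 0.007). Nr1h3 encodes LXR alpha, the oxysterol receptor that activates Srebf1. It read 1731 and 1560 in hepatocytes and 195 to 323 in EpCAM+ cells (limma adjusted p = 0.0037). The others that fell were Msmo1 (a sterol methyl oxidase), Hsd17b12 (an elongation reductase), Slc25a1 (the citrate carrier), Agpat2 (an acyltransferase), Stard5 (a sterol carrier) and Acsl4 (an acyl-CoA synthetase). Fads3, a relative of Fads1 and Fads2, rose, from not above background and 131 in hepatocytes to 228 to 324 in EpCAM+ cells (log2 difference 1.14, SE 0.26, limma adjusted p = 0.029).

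Loss of DDB1 in hepatocytes was read on 1 mutant and 1 wild type array, so these arrays were compared by fold with no test, and the standard errors given here cover only the beads of an array. Over 2-fold, the study's threshold, 8 of 31 genes were lower and 0 higher in mutant hepatocytes, where 10% of all genes were lower and 11% higher. The median log2 fold was -0.42 over the 31 genes and -0.01 over all genes. Thrsp showed the widest gap, 2457 against 153, or 16-fold (log2 fold -4.00, SE 0.13). Acacb followed with 4194 against 615 (log2 fold -2.77, SE 0.11). The remaining lower genes were Tm7sf2 (log2 fold -2.08), Pmvk (-1.66), Stard4 (at least 2.91-fold lower, being not above background in the mutant), Acss2 (-1.53), Nsdhl (-1.34) and Scd1 (-1.07). Thrsp, Acacb, Acss2 and Scd1 belong to the fatty acid side, Tm7sf2, Pmvk, Nsdhl and Stard4 to the sterol side.

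Neighbouring steps of the same chains ranged from slightly higher, such as Acly at 1.33-fold, to just under 2-fold lower in the mutant. Me1 (1.94-fold), Idi1 (1.81-fold), Fdps (1.77-fold), Fasn (1.67-fold) and Elovl6 (1.64-fold) were lower. Lss (2358 and 3057), Hsd17b7 (4546 and 5336), Ebp (3477 and 3146) and Sqle (1041 and 1124) differed by at most 1.30-fold, and Acly read 12212 and 16240. Srebf2 was higher in the mutant, 1001 against 664 (log2 fold 0.59), and Srebf1, not above background in wild type hepatocytes, was at least 1.87-fold higher, a bound that does not place it on either side of 2-fold. For Fads2 the probes disagreed, with 2587 and 2897 on the brighter and 1030 and 459 on the dimmer probe. They also disagreed for Lss and Hsd17b7, whose dimmer probes were lower in the mutant, with 215 and 115 for Lss and 313 and 176 for Hsd17b7. Of the other pathway genes, 27 had a fold between the 2 hepatocyte arrays, a set that differs from the 27 tested above. Over 2-fold, 9 were lower and 0 higher in the mutant, where 10% of all genes were lower and 11% higher. Elovl3, an elongase known for its circadian control in liver, was at least 20.8-fold lower in the mutant, with 2386 in wild type hepatocytes. Lpin1, a phosphatidate phosphatase, read 1994 and 261, and Mlxipl, which encodes the carbohydrate-sensing factor ChREBP, read 5759 and 2448.

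The mutant hepatocytes also carried more signal of other liver cells. Between wild type and mutant hepatocytes, the summed signal went from 705 to 6930 over cholangiocyte and OC genes (1 and 5 of 6 above background), from 2910 to 15200 over endothelial genes (5 and 7 of 7), from 1380 to 6360 over macrophage genes (3 and 5 of 6) and from 2870 to 13300 over stellate cell and fibroblast genes (3 and 5 of 7). In the last of these lists, Reln alone went from 1880 to 8650. The hepatocyte genes went from 249000 to 187000, with 9 of 10 above background in both. The part of these in the folds above was not tested. The direction over all genes also hung on the scaling: 957 genes were higher and 872 lower as deposited, against 2105 and 352 when the non-normalized arrays were scaled to 1 median, which moved the median log2 fold of all genes to 0.40 and that of the 31 genes to -0.02. After that scaling 7 genes were lower and 2, Lss and Srebf2, higher. Nsdhl, with a log2 fold of -0.67, was the gene that no longer passed 2-fold.

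**Figure D3:**
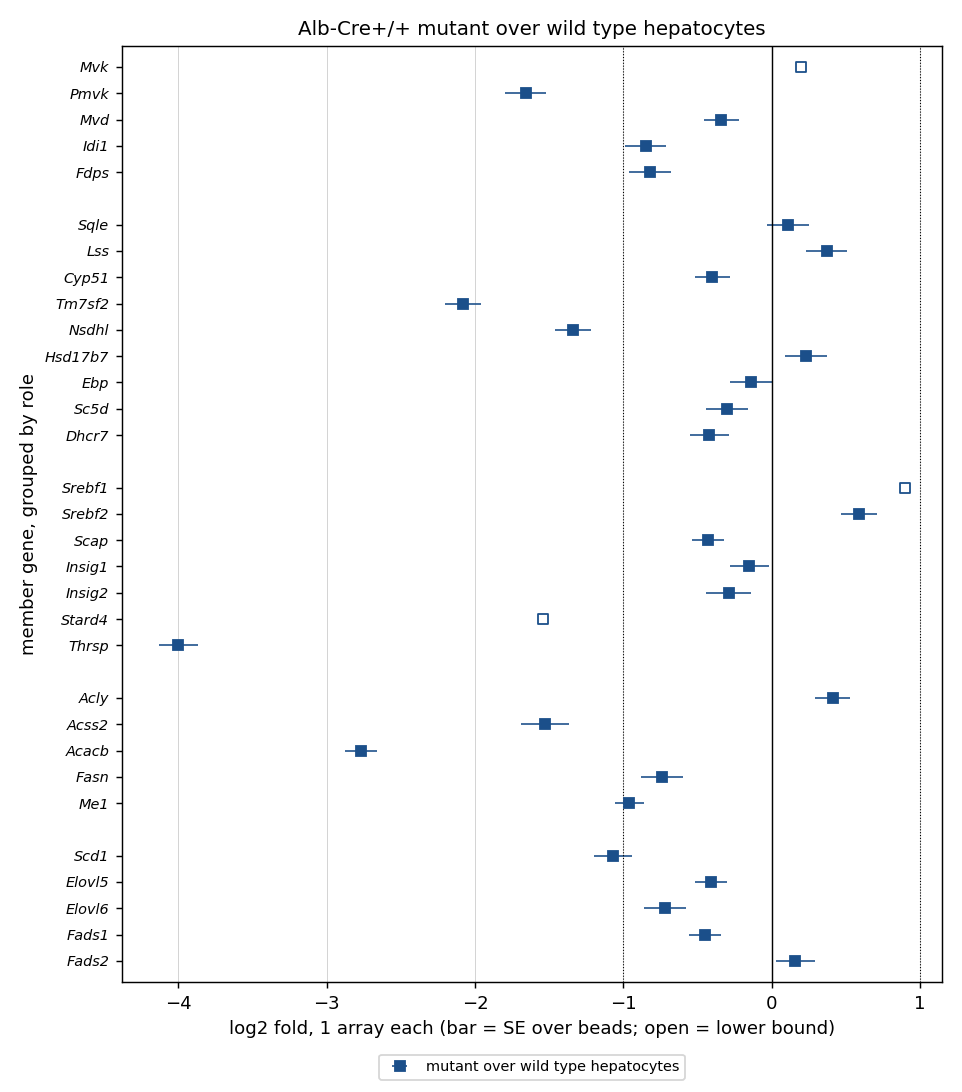
Log2 fold of the mutant over the wild type hepatocyte array for each member gene, 1 array each, with the standard error over beads as the bar; open symbols are lower bounds and dotted lines mark 2-fold. Of the 31 genes, 8 lie left of the 2-fold line, down to Thrsp at -4.00, and none lies right of it.

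The study's own contrasts set EpCAM+ cells from Alb-Cre+/+ liver and, separately, from the DDC model against the same wild type hepatocyte array, so the 2 share that array. In Alb-Cre+/+ EpCAM+ cells 22 of 29 genes were over 2-fold lower and 1 higher, where 19.3% of all genes were lower and 21.4% higher. After DDC 19 of 29 were lower and 1 higher, where 18.6% were lower and 21.2% higher. The gene above 2-fold was Srebf2 in both, at 2.42-fold in Alb-Cre+/+ and 2.03-fold after DDC on its brighter probe. Its second probe read 341 in wild type hepatocytes, 610 in Alb-Cre+/+ and 249 after DDC. The median log2 fold of the genes was -1.76 in Alb-Cre+/+ and -2.01 after DDC, against 0.04 over all genes in each. Scd1 was 98.2-fold lower in Alb-Cre+/+ and 126-fold lower after DDC. Acacb was 29.5-fold and 27.4-fold lower, and Thrsp at least 20.6-fold and at least 22.3-fold lower. Smaller drops of the same kind were those of Insig2 (8.73-fold and 10.7-fold) and Ebp (6.17-fold and 6.06-fold). A second Insig2 probe fell less after DDC, with 1670 in wild type hepatocytes, 297 in Alb-Cre+/+ and 855 after DDC. Elovl6 stood at 2.10-fold lower in Alb-Cre+/+ and 5.76-fold lower after DDC. Hsd17b7 stood at 4.24-fold lower in Alb-Cre+/+, with 1072 against 4546, and within 2-fold after DDC, with 3231. Its dimmer probe did not show this contrast, with 313 in wild type hepatocytes and no signal above background in Alb-Cre+/+ or after DDC.

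Whether the EpCAM+ cells of the genetic models differ from those of the chemical model was asked by setting each mutant array against the DDC array. In limma's fit of 3 groups, in which the lone DDC array is assumed to vary like the others, 0 of 31 genes passed an adjusted p under 0.05, and 0 did at an unadjusted p under 0.05. Over all genes tested 0% passed in either direction, and 524 genes had an unadjusted p under 0.05. The median log2 difference was 0.00 over the 31 genes and 0.02 over all. All 3 mutant arrays lay above the DDC array for 8 genes and below it for 8, where 22.9% and 25% of all genes did.

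These counts are close to the shares of all genes, and the genes are given as a description. The 8 above DDC, each at its brightest probe, were Idi1, Srebf2, Scap, Insig2, Scd1, Elovl5, Elovl6 and Fads1. A second probe of Insig2 had the opposite order, with 855 after DDC and 297, 345 and 539 in the mutants. On the second Srebf2 probe the order was mixed, with 249 after DDC and 610, 208 and 221 in the mutants. Elovl6 read 202 after DDC and 554, 363 and 405 in Alb-Cre+/+, Alb-Cre+/- and Mx1-Cre (log2 difference 1.10, SE 0.52). Fads1 read 5616 after DDC and 10819, 6794 and 15832 in the mutants (log2 difference 0.91, SE 0.53). Scd1 read 208 after DDC and 267, 616 and 267 in the mutants, all far under the hepatocyte values. The 8 genes below DDC were Mvk, Pmvk, Fdps, Sqle, Tm7sf2, Hsd17b7, Ebp and Insig1, with Ebp within 1.1-fold over all 4 arrays. Hsd17b7 read 3231 after DDC and 1072, 2169 and 1482 in the mutants (log2 difference -1.10, SE 0.44). Its dimmer probe was above background on none of these arrays and sets no order between them. Sqle read 1771 after DDC and 1266, 1208 and 1170 in the mutants (log2 difference -0.54, SE 0.30). None of these passed the test.

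Over 2-fold, with all 3 comparisons sharing the DDC array, few genes stood apart in any model. In Alb-Cre+/+ 1 of 27 was higher (Elovl6, 2.74-fold) and 1 lower (Hsd17b7, 3.02-fold), where 8.23% and 8.21% of all genes were. In Alb-Cre+/- 2 of 29 were higher (Scd1, 2.96-fold, and Elovl5, 2.04-fold) and 0 lower, where 5.82% and 4.67% were. In Mx1-Cre 3 of 28 were higher (Acacb, 2.90-fold, Fads1, 2.82-fold, and Elovl6, 2.01-fold) and 1 lower (Hsd17b7, 2.18-fold), where 5.30% and 4.87% were. Each of these counts rests on 1 to 3 genes. Of the other pathway genes, Mlxipl alone was over 2-fold above DDC in all 3 mutants, with 277 after DDC and 1190, 1114 and 1047 in the mutants.

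Other cells' markers differed between these arrays too. The summed signal of the 10 hepatocyte genes was 49000 in Alb-Cre+/+, 61000 in Alb-Cre+/- and 42700 in Mx1-Cre against 19400 after DDC, with 8, 9, 8 and 6 of the 10 above background. Ttr alone gave 35500, 46600 and 38000 of these against 14700. Arg1 read 414, 1280 and 123 against 123. Cyp7b1 went the other way, with 275, 375 and 352 against 513. Alb, the albumin gene, had a dim probe with 794 and 229 in wild type and mutant hepatocytes, and fell under background after DDC and in Alb-Cre+/+. The 7 endothelial genes summed to 22200, 31800 and 15900 against 1870 after DDC, with 7, 7, 7 and 4 above background. The 7 stellate cell and fibroblast genes summed to 6450, 18400 and 10100 against 1250. Reln alone gave 4070, 15500 and 9430 of these against 316. Dcn, the next brightest, read 2000, 2510 and 370 against 700, so Mx1-Cre was below DDC for it. The 6 macrophage genes summed to 1080, 6320 and 468 against 583, with 1, 5, 2 and 1 above background, although the study describes an F4/80-negative gate. Their part in the differences from DDC was not tested.

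**Figure D4:**
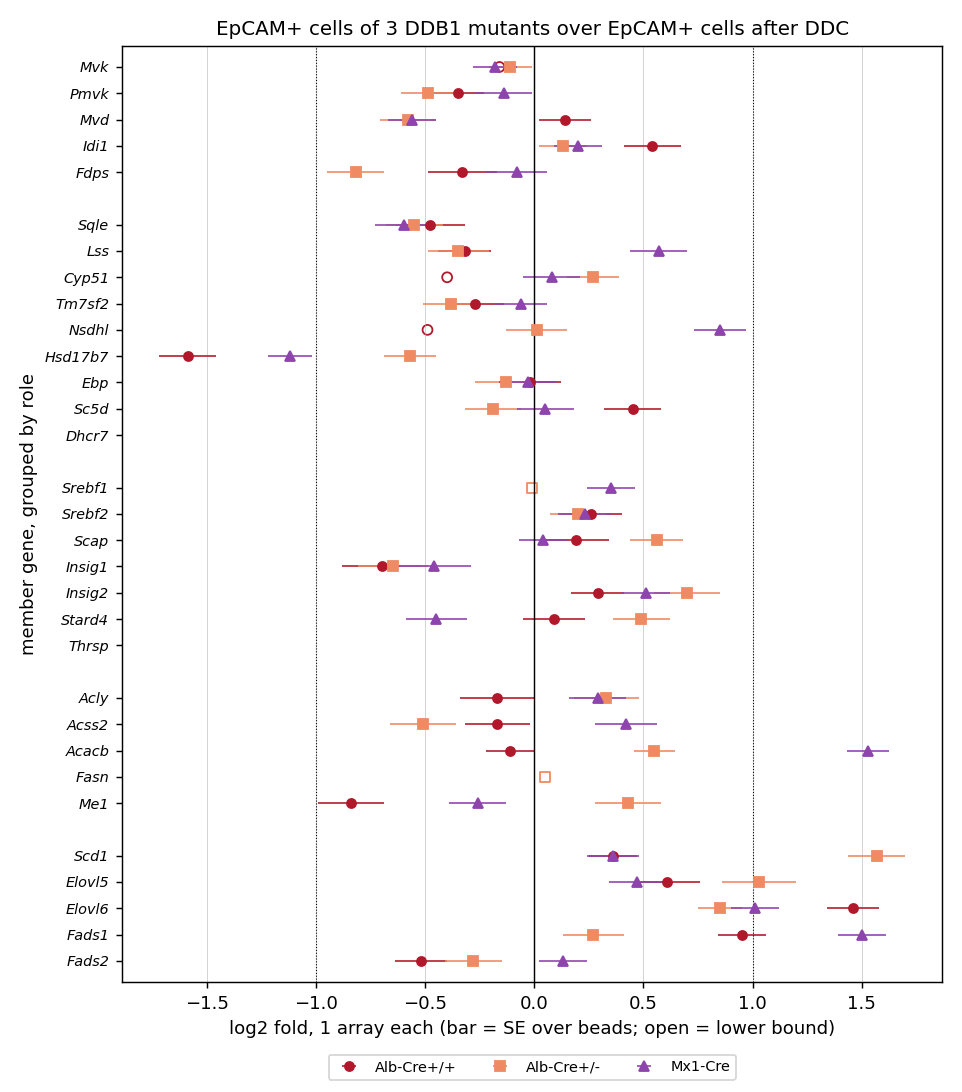
Log2 fold of the EpCAM+ array of each DDB1 mutant over the EpCAM+ array after DDC, 1 array each, with the standard error over beads as the bar; open symbols are lower bounds, dotted lines mark 2-fold and genes not above background on both arrays have no point. Elovl5, Elovl6, Fads1 and Scd1 lie right of 0 and Hsd17b7 left of it in all 3 mutants, and most other points lie within 2-fold.

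The 4 EpCAM+ arrays also differed among themselves. Over the 24 genes above background on all 4, the median ratio of the highest to the lowest array was 1.64, and it was 1.71 over 7988 genes. Ebp (1.1-fold) and Srebf2 (1.19-fold) had the smallest ratios of these 24 genes. Acacb (3.12-fold, highest in Mx1-Cre), Hsd17b7 (3.02-fold, highest after DDC), Scd1 (2.96-fold, highest in Alb-Cre+/-) and Fads1 (2.82-fold, highest in Mx1-Cre) had the highest ratios among them.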

How the data were processed

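RNA of 6 cell preparations was hybridised to Illumina mouse bead arrays, 1 array for each condition. The authors summarised bead intensities in GenomeStudio, with a detection p-value for each probe, and deposited these intensities non-normalized together with a set that they quantile normalized (normalize.quantiles); the latter were used here. Bead standard errors and bead numbers were deposited too. Columns of other samples: 0. The median bead standard error was 5.65% to 6.13% of the signal; with 1 array per condition, the number of arrays limits the precision.

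In the annotation used, 34885 probes had 1 gene symbol, 18 had several and 10378 had none. Each gene was read at its probe with the highest mean signal; of the 34 genes, 17 had 1 probe and 17 several. Signals were raised to a floor of 115 and taken to log2. Genes above background on at least 2 of 6 arrays were tested with limma 3.58.1 (lmFit, eBayes with trend) in R 4.3.3, with Benjamini-Hochberg adjustment over all genes. The p-values measure the spread between models, not between animals of a condition. Single arrays were compared by folds over 2 with no test; a fold against a signal not above background is a bound, set at that array's dimmest probe above background or at the signal itself where higher. Each bound against a group was formed in the same way on each array. Scripts were tested on simulated data. All members were named by their role; other genes were named where they passed a test or 2-fold. Members and lists were chosen with earlier results of these data known. Alternatives were other normalizations, filters, floors and probe rules, and each array left out.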

Additional observations from a re-analysis of the deposited data

Results flagged for a closer look

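Srebf1, the lipogenic SREBP gene, was marked by the test for a sample apart from its group, over the 4 EpCAM+ arrays, but the mark follows from the floor. It read 144 in Mx1-Cre against 111 and 110 in Alb-Cre+/+ and Alb-Cre+/-, both not above background, and 113 after DDC. As all but Mx1-Cre were at or under the floor of 115, the gap of the highest array to the next was the whole range, a ratio of 1, which could take no other value. Chance marks about 1 in 20 groups, or 1.4 of the 28 genes examined, and 1 was marked.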

How the results depend on the processing

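Ebp, Fads2, Insig2 and Scd1 were lower in EpCAM+ cells in all 15 alternative fits, and Lss in 14 of 15 (highest limma adjusted p 0.052); the other 9 genes lost the call in at least 1. With no filter on detection, 5 member genes were called lower (Ebp, Fads2, Insig2, Lss and Scd1), and 0 other pathway genes higher and 2 lower; over all genes that setting called 249 higher and 429 lower, against 790 and 803, and between mutants and DDC 1 and 236. Restricted to genes above background on all 6 arrays, 0 other pathway genes were higher. Without trend in eBayes, 1 member, Srebf2, was higher. Leaving out 1 array gave 6 to 17 members lower and 0 to 1 higher (Srebf2, without mutant hepatocytes), and 2 to 8 other pathway genes lower and 0 to 1 higher. Over all genes, the counts without wild type hepatocytes were 186 higher and 553 lower. For no result was the cause tested.

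Median scaling gave 2 members over 2-fold higher in mutant hepatocytes and 2 after DDC against wild type hepatocytes (Sqle and Srebf2), 3 lower in Alb-Cre+/+ than after DDC (Hsd17b7, Me1 and Sqle), and 1 higher (Scd1) and 1 lower (Fdps) in Alb-Cre+/-. It turned the split over all genes after DDC against wild type hepatocytes from 1925 higher and 1691 lower to 2780 and 1258, that of Alb-Cre+/+ against DDC from 859 and 857 to 595 and 1677, and that of Alb-Cre+/- from 637 and 511 to 558 and 864. It moved the median log2 fold of all genes to 0.39, -0.24 and -0.10, beside -1.70, -0.35 and -0.07 for the members. With normexp background, 1 member, Srebf1, was higher in mutant hepatocytes. With the mean of all probes of a gene, 0 members were over 2-fold higher in DDC EpCAM+ cells than wild type hepatocytes, 0 lower in Alb-Cre+/+ than after DDC, and 0 higher and 0 lower in Mx1-Cre than after DDC, and Scap in Alb-Cre+/+ against wild type hepatocytes reversed to 0.41. The matching counts over all genes were 1103 up of 8722 for DDC against wild type hepatocytes. Against DDC they were 489 down of 10325 for Alb-Cre+/+, and 293 up and 301 down of 10537 for Mx1-Cre. With so few genes past 2-fold, counts of 0 among 27 and 28 members do not set the members apart in the comparisons with DDC.

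Past 2-fold in every alternative that gave a value were 7 of the 8 members in mutant hepatocytes, 18 of 23 in Alb-Cre+/+ and 17 of 20 after DDC against wild type hepatocytes, 1 of 2 in Alb-Cre+/-, 0 of 2 in Alb-Cre+/+ and 0 of 4 in Mx1-Cre against DDC. No paired analysis was possible because each condition has 1 array and the labels give no replicate numbers. Between mutants and DDC no fit could be made without the DDC array. Signals near background, such as those of Dhcr7, Fasn, Mvk and Srebf1, set only bounds.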
